A study of Mus musculus with 7 samples.

Results

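The transcripts of 5 genes of the meiotic chromosome axis, *Hormad1*, *Hormad2*, *Sycp2*, *Sycp3* and *Trip13*, were followed in bulk RNA-seq of mouse testes with and without *Meioc*. The genes were taken from a list of axis components and the enzyme that remodels HORMA-domain proteins, by the roles of their products and not by a threshold on measured values, and each was found by its Ensembl identifier among 21928 genes. All 5 passed the filter on low values (a TPM, a length-corrected level scaled to the same total in every library, of 1 or more in 3 or more of the 7 libraries), as did 13630 genes in all. *Meioc* encodes a germ cell protein that, with its partners YTHDC2 and RBM46, acts on transcripts as spermatogenic cells pass from mitosis to meiosis, and the comparison asks which transcripts depend on it just before meiotic prophase. Testes came from C57BL/6N male pups, 4 wild-type and 3 *Meioc*-null (*Meioc* KO, allele *Meioc* tm1.1Dpc), and each library was made from 1.5 whole testes of 1 pup. Both groups had received the inhibitor WIN 18,446 at 0.1 mg per gram of body weight daily from postnatal day 2 to postnatal day 8, then retinoic acid at 0.0125 mg per gram on postnatal day 9, and testes were taken 6.75 days after the retinoic acid. This treatment synchronizes spermatogenesis so that preleptotene spermatocytes, the cells about to enter or passing through meiotic S phase, are enriched. A whole testis also holds somatic cells and spermatogonia, and untreated testes were not part of the comparison. p-values from these libraries measure the spread between pups.

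In meiotic prophase, the loops of each replicated chromosome are anchored along a proteinaceous axis built on cohesin complexes. SYCP2 and SYCP3 form filaments on this axis, which become the lateral elements of the synaptonemal complex. HORMAD1 and HORMAD2 are HORMA-domain proteins that bind unsynapsed axes, where HORMAD1 supports the formation of DNA double-strand breaks and homolog pairing and HORMAD2 serves in the surveillance of unsynapsed chromosomes. TRIP13 is an AAA+ ATPase that removes HORMADs from axes once homologs have synapsed, and in dividing somatic cells it remodels the related HORMA-domain protein MAD2 of the spindle checkpoint.

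The transcripts of the 4 structural axis genes were more abundant in wild-type than in *Meioc*-null testes, between 2.13-fold (*Sycp3*) and 3.32-fold (*Hormad1*), and every wild-type library lay above every null library for each of them. *Trip13* was 0.868-fold in wild type relative to the null and was not called. Thus 4 of the 5 were called as higher in wild type, and 0 as lower, by the edgeR quasi-likelihood test (QL test) at a Benjamini-Hochberg adjusted p under 0.05, with the adjustment made over all tested genes. Of all tested genes, 7.77% were called higher, 3.33% lower and 11.1% in either direction. The same 4 genes had groups that did not overlap with wild type higher, a pattern that 15.4% of all tested genes showed. The median log2 fold change, wild type over null, was 1.22 over the 5 genes and -0.0065 over all tested genes. In bulk RNA, fewer cells of a type and less RNA per cell cannot be told apart.

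The libraries held between 12537852 and 20552702 estimated counts in protein-coding transcripts, and no pair of libraries agreed within sampling noise. Over all genes, wild-type replicate 1 was nearer to null replicate 1 (mean chi-square of their counts per gene 11.4) than to the other wild-type libraries (14.0 to 23.3), and for null replicate 1 it was also the nearest library. Without wild-type replicate 1, the 4 axis genes were still called, with log2 fold changes of 1.92 (*Hormad1*), 1.39 (*Hormad2*), 1.53 (*Sycp2*) and 1.23 (*Sycp3*), and *Trip13* was at -0.30 and not called. The smallest estimated count behind any value of the 5 genes was 214, for *Hormad2* in null replicate 2, and the largest was 13984, for *Sycp2* in a wild-type library. Levels are given as CPM, counts scaled to a common library total after normalization by the trimmed mean of M-values (TMM). *Meioc* itself averaged 628 ± 110 CPM (SD, n = 4) in wild type against 371 ± 62.1 CPM (SD, n = 3) in null testes, with no overlap. Its log2 fold change was 0.76 (edgeR QL test, adjusted p = 0.0207; standard error, SE, 0.16), so the null libraries still held transcript counts from the locus. Which part of the transcript the null allele removes is not given in the sources used here. Summed CPM of the germ cell markers *Ddx4*, *Dazl* and *Rbm46* ran from 1341 to 1470 in wild type and from 918 to 1062 in the null, with none of the markers at 0 in any library. *Dazl* made up most of this sum, at a mean of 1105 CPM in wild type and 738 CPM in the null, and was itself called higher. Scaling of libraries to these markers, used below, is by the sum of their counts and so rests mostly on *Dazl*. Of 10 markers of Sertoli, Leydig, peritubular, endothelial and macrophage cells, 0 were called and 0 were at 0 in any library. For so few genes this lies near the 11.1% called among all tested genes. The Leydig marker *Dlk1*, also not called, was at 12.4 to 17.0 CPM in wild type and 17.5 to 22.4 CPM in the null. Its log2 fold change was -0.45 (edgeR QL test, adjusted p = 0.074). Of 4 markers of undifferentiated spermatogonia, 1 was called, *Zbtb16*, lower in wild type (60.5 to 68.7 CPM against 84.9 to 161 CPM, log2 fold change -0.86, adjusted p = 0.021 in the same test). *Etv5* (-0.47, adjusted p = 0.084), *Gfra1* (-0.14) and *Id4* (0.15) were not called. Of 3 markers of differentiating spermatogonia and preleptotene cells, *Kit* was called higher (log2 fold change 0.55, adjusted p = 0.018), and *Ccnd2* was at -0.17 and not called. The third, *Stra8*, a regulator of meiotic entry, had a log2 fold change of 1.14 and was not called (adjusted p = 0.095 in the same test). Its groups overlapped, from 126 to 411 CPM in wild type and from 77.3 to 158 CPM in the null. *Meiob*, the marker of leptotene and zygotene cells, was low but called higher in wild type (3.70 to 7.57 CPM against 1.41 to 1.98 CPM, log2 fold change 1.56, adjusted p = 0.0174). *Piwil1*, the pachytene marker, lay from 2.32 to 4.27 CPM in wild type and from 4.30 to 6.88 CPM in the null and was not called (log2 fold change -0.70, adjusted p = 0.106). The part of these stage marker differences in the axis gene results was not tested, and each axis gene is set against the germ cell markers below.

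The starts of the 4 genes that moved together are shown with the motifs that the study's questions concern: the E2F6 motif GGCGGGAA, the E-box CACGTG bound by MGA and related factors, and the STRA8 motif CNCCTCAG, each searched on both strands, with no match of one motif overlapping another in these windows. Each window ran from 250 bases before to 50 bases after the RefSeq start, and the printed letters are the part upstream of every annotated start, 5′ to 3′ on the gene's strand (RefSeq, build GRCm38.p6). Capitals mark the motif matches. All 5 genes had a window, and for *Hormad1*, with 2 in the table, the first by coordinate was used.
Hormad1, chr3:95559427-95559676, plus strand: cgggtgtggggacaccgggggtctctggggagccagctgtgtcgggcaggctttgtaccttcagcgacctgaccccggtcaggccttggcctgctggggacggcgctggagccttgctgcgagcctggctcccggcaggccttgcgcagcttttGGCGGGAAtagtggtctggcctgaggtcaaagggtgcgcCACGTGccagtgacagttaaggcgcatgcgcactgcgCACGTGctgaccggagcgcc
Hormad2, chr11:4441106-4441332, minus strand: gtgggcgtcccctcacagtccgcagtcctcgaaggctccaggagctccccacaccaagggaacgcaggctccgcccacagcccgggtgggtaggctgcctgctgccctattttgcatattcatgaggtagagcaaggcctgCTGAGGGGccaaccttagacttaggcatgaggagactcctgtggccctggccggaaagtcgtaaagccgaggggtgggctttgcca
Sycp2, chr2:178407686-178407908, minus strand: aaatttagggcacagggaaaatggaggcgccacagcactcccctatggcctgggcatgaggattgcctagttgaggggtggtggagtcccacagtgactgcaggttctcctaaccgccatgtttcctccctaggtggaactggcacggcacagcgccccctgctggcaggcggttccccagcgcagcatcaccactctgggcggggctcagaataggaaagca
Sycp3, chr10:88459337-88459568, plus strand: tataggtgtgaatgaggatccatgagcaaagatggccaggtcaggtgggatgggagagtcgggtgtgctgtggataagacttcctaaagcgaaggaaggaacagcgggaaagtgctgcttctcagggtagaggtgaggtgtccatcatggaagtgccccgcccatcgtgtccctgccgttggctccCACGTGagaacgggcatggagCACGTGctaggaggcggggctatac
*Hormad1* held the E2F6 motif 96 bases upstream of its start and E-boxes 57 and 20 bases upstream. *Sycp3* held E-boxes 64 and 43 bases upstream. *Hormad2* held the STRA8 motif on the opposite strand, read as CTGAGGGG on the gene's strand, 109 bases upstream. That distance is from the start of the form *Hormad2-203*, which held 28.6% to 41.2% of *Hormad2* TPM in wild type and 33.0% to 55.7% in the null. The other form, *Hormad2-202*, starts farther downstream. The window of *Sycp2* held none of the 3 motifs, nor did that of *Trip13*, which is not printed because exons of the divergent gene *Brd9* lie in it. Among 32851 windows of the same length, 2.19% held the E2F6 motif, 7.15% an E-box, 0.594% at least 2 E-boxes, and 7.94% the STRA8 motif. A match is a string of letters in the window and no evidence of binding, and none of the 3 strings was present in all 4 of the called genes.

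*Hormad1* (ENSMUSG00000028109, GRCm38 chr3:95559677-95587671, plus strand), which marks unsynapsed axes, had the largest difference of the 5. It was at 132.9, 240.6, 248.7 and 291.0 CPM in wild-type replicates 1 to 4 and at 77.3, 52.9 and 75.9 CPM in null replicates 1 to 3. The lowest wild-type library, replicate 1, was 1.72 times the highest null library. Wild type averaged 228 ± 67.3 CPM (SD, n = 4) and the null 68.7 ± 13.7 CPM (SD, n = 3), for a log2 fold change of 1.73 (edgeR QL test, adjusted p = 0.0077; SE 0.25). Of the 13630 tested genes, 77 had a higher log2 fold change.

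*Hormad2* (ENSMUSG00000020419, chr11:4345814-4441105, minus strand), its paralog, was much less abundant. Wild-type replicates 1 to 4 were at 24.8, 40.6, 42.2 and 50.0 CPM and null replicates 1 to 3 at 19.2, 15.5 and 16.0 CPM. The groups did not overlap, but wild-type replicate 1 was only 1.29 times null replicate 1. Wild type averaged 39.4 ± 10.5 CPM (SD, n = 4) and the null 16.9 ± 2.01 CPM (SD, n = 3), for a log2 fold change of 1.22 (edgeR QL test, adjusted p = 0.0134; SE 0.21). The call was lost without null replicate 2 (adjusted p = 0.051) and without null replicate 3 (adjusted p = 0.0637), within leave-one-out adjusted p-values from 0.00046 to 0.0637.

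*Sycp2* (ENSMUSG00000060445, chr2:178345293-178407685, minus strand), which encodes the large lateral element protein, had the smallest adjusted p of the 5. Its levels were 444.4, 652.3, 621.2 and 705.7 CPM in wild-type replicates 1 to 4 and 215.6, 217.3 and 250.8 CPM in null replicates 1 to 3. The null libraries lay close together, with a coefficient of variation of 8.72%, and the lowest wild-type library was 1.77 times the highest of them. Wild type averaged 606 ± 113 CPM (SD, n = 4) and the null 228 ± 19.9 CPM (SD, n = 3), for a log2 fold change of 1.41 (edgeR QL test, adjusted p = 0.0020; SE 0.15).

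*Sycp3* (ENSMUSG00000020059, chr10:88459569-88473236, plus strand) encodes the filament-forming partner of SYCP2. It was at 182.2, 271.0, 278.3 and 315.8 CPM in wild-type replicates 1 to 4 and at 131.4, 100.8 and 136.5 CPM in null replicates 1 to 3. As for the other axis genes, replicate 1 was the lowest wild-type library, here 1.33 times the highest null library. Wild type averaged 262 ± 56.6 CPM (SD, n = 4) and the null 123 ± 19.3 CPM (SD, n = 3), for a log2 fold change of 1.09 (edgeR QL test, adjusted p = 0.0118; SE 0.18), the smallest of the 4 called genes. Without null replicate 3 the call was lost (adjusted p = 0.0508, the highest of leave-one-out adjusted p-values that began at 0.00069).

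*Trip13* (ENSMUSG00000021569, chr13:73911347-73937784, minus strand), the HORMAD remodeler, did not share this pattern. Wild-type replicates 1 to 4 were at 45.7, 36.9, 36.9 and 33.0 CPM and null replicates 1 to 3 at 40.2, 42.1 and 49.2 CPM. The groups overlapped because wild-type replicate 1 was above 2 of the null libraries, and the other 3 wild-type libraries lay below all null libraries. Wild type averaged 38.1 ± 5.37 CPM (SD, n = 4) and the null 43.8 ± 4.73 CPM (SD, n = 3), for a log2 fold change of -0.20 (edgeR QL test, adjusted p = 0.287; SE 0.12). *Trip13* was called lower in wild type (log2 fold change -0.68, adjusted p = 0.0033) when libraries were scaled to the germ cell markers, a setting that shifted the median of all tested genes to -0.49. Relative to that median, its log2 fold change was -0.19, and over the other settings, the smallest adjusted p was 0.063.

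**Figure D1:**
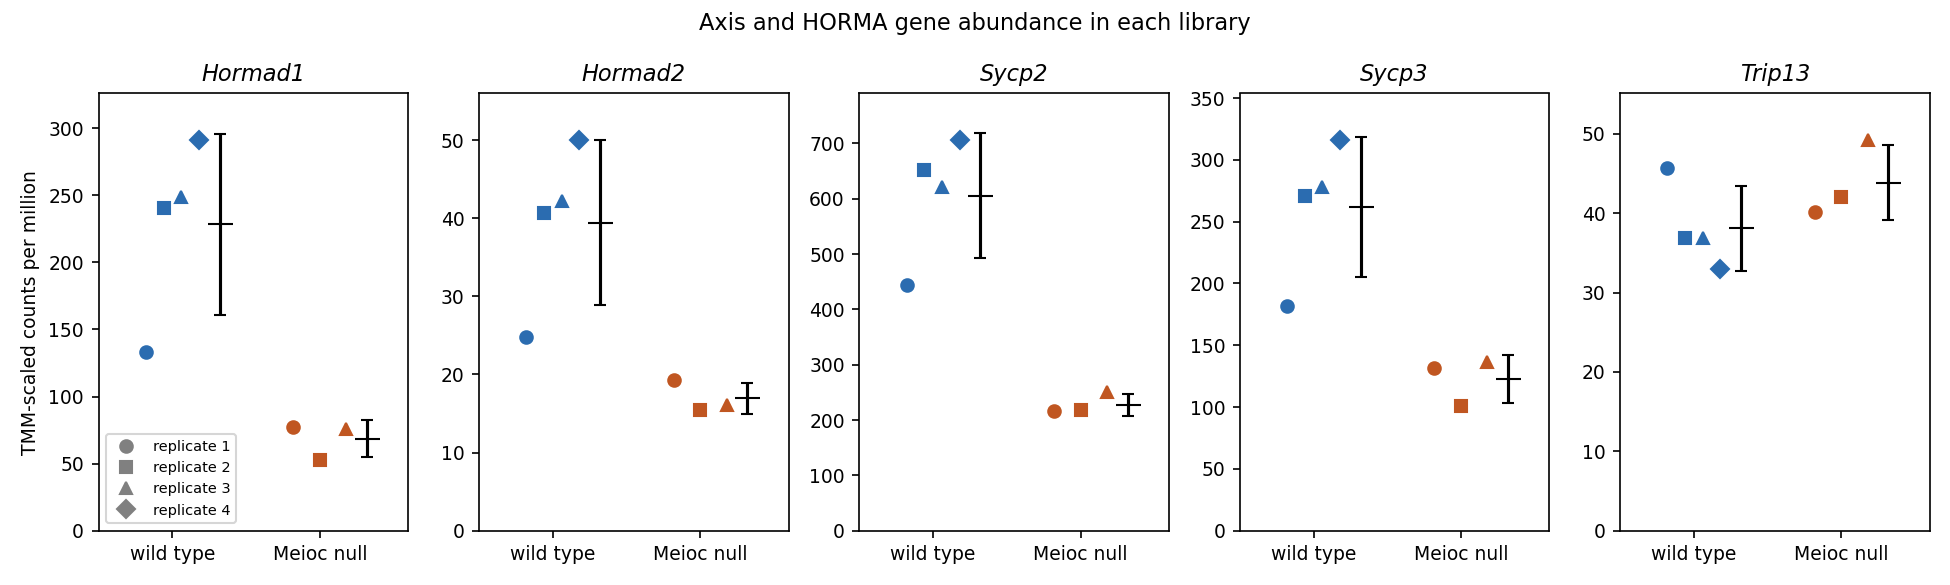
TMM-scaled counts as CPM (vertical axis, from 0, a different scale in each panel) of the 5 genes in 4 wild-type (blue) and 3 *Meioc*-null (orange) libraries, with symbols for the replicate number and black bars for the mean and SD. For *Hormad1*, *Hormad2*, *Sycp2* and *Sycp3* every wild-type point lies above every null point and replicate 1 is the lowest wild-type point, while for *Trip13* the groups overlap and replicate 1 is the highest wild-type point.

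Across 18 fits, which vary the normalization, test, filter, threshold and block or leave out 1 library, the log2 fold change ran from 1.25 to 1.92 for *Hormad1*, 0.92 to 1.53 for *Sycp2*, 0.73 to 1.39 for *Hormad2* and 0.61 to 1.23 for *Sycp3*. The lowest value of each came from scaling to the germ cell markers, where all 4 were still called. *Trip13* ran from -0.68 to -0.11 over the same fits.

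**Figure D2:**
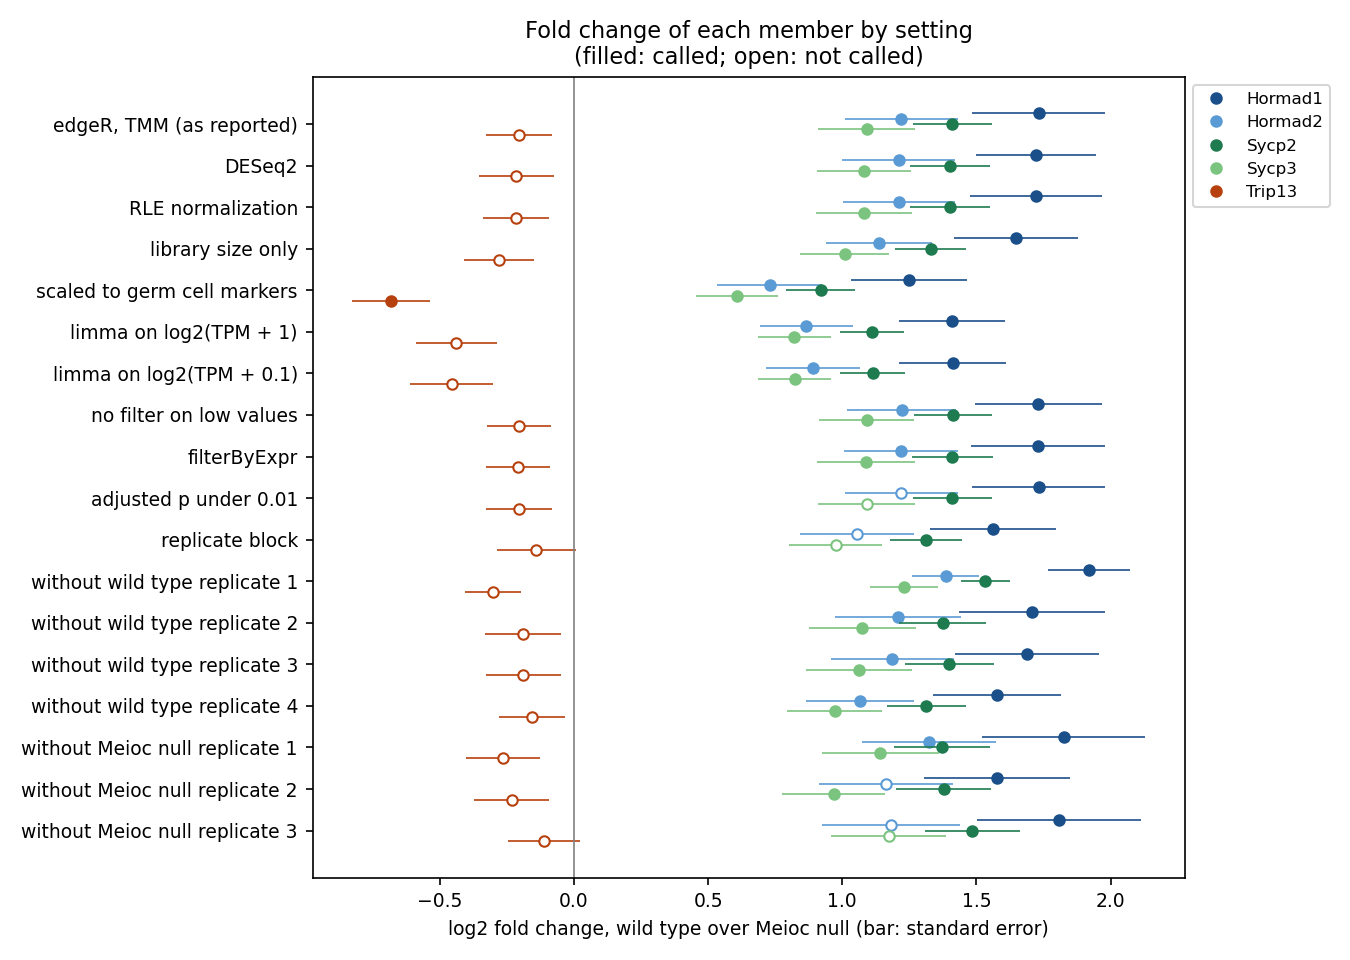
Log2 fold change of wild type over *Meioc* null (horizontal axis) with its standard error for the 5 genes under 18 settings (rows), filled where called. The 4 axis genes stay above 0 and *Trip13* below 0 throughout, and *Hormad2* and *Sycp3* lose their calls at the stricter threshold, under the replicate block and without 1 or 2 of the null replicates.

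Levels of different genes were compared as TPM, which allows for transcript length. In all 7 libraries *Sycp3* was the most abundant, followed by *Hormad1* and *Sycp2*. *Sycp3* ran from 865.6 to 1345 TPM in wild type and from 576.3 to 663.6 TPM in the null. *Hormad1* ran from 423.1 to 836.8 TPM and from 206.4 to 262.2 TPM, and *Sycp2* from 260.8 to 371.4 TPM and from 133.3 to 156.8 TPM. These 3 neighbours in the order did not overlap within either group. *Hormad2* and *Trip13* were far lower and exchanged places. In wild-type replicates 1 to 4, *Hormad2* was at 29.2, 43.9, 46.9 and 52.3 TPM, above *Trip13* in each library, which was at 25.3, 18.1, 18.1 and 16.3 TPM. In null replicates 1 to 3, *Hormad2* was at 24.1, 22.0 and 22.0 TPM and *Trip13* at 23.4, 27.7 and 28.2 TPM. *Trip13* was thus above *Hormad2* in null replicates 2 and 3, and the null ranges of these neighbours overlapped.

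Ratios of TPM within a library do not depend on how libraries are scaled to each other, and 5 were compared between groups by a two-sided exact permutation test of the log2 ratio. With 4 libraries against 3 there are 35 splits, and the smallest p the design allows is 0.0571, so that no ratio could pass 0.05. The ratio of *Hormad1* to *Hormad2* was 14.5, 15.6, 15.1 and 16.0 in wild-type replicates 1 to 4 and 10.9, 9.36 and 11.9 in null replicates 1 to 3. Their log2 ratio was 3.93 ± 0.062 (SD, n = 4) in wild type and 3.42 ± 0.18 (SD, n = 3) in the null, a difference of 0.52 with no overlap (exact permutation p = 0.0571, also after adjustment over the 5 ratios). Wild-type replicate 1, lowest for each gene, was also lowest in this ratio among wild-type libraries, but lay nearer to them than to the null. The ratio of *Sycp2* to *Sycp3* was 0.301, 0.293, 0.274 and 0.276 in wild type and 0.201, 0.267 and 0.237 in the null. Here too the groups did not overlap, with a log2 difference of 0.29 (exact permutation p = 0.0571), although null replicate 2 lay close to the lowest wild-type library.

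The largest shifts were those relative to the remodeler. Each such log2 difference is the axis gene's own TPM difference less that of *Trip13*. These ratios therefore restate the levels of the members and are no separate result. There were 33.6 *Hormad1* transcripts per *Trip13* transcript in wild type and 9.19 in the null, as geometric means of TPM ratios. Log2 ratios were 5.07 ± 0.70 (SD, n = 4) and 3.20 ± 0.30 (SD, n = 3), a difference of 1.87 with no overlap (exact permutation p = 0.0571). *Hormad2* to *Trip13* went from 2.20 in wild type to 0.861 in the null, a log2 difference of 1.35 (exact permutation p = 0.0571). *Sycp3* to *Trip13* went from 58.3 to 24.0, a log2 difference of 1.28 (exact permutation p = 0.0571). In each of these 3 ratios, wild-type replicate 1 stood nearest to the null libraries: its *Hormad2* to *Trip13* ratio was 1.16 against 1.03 in null replicate 1, and the other wild-type libraries ran from 2.43 to 3.21.

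**Figure D3:**
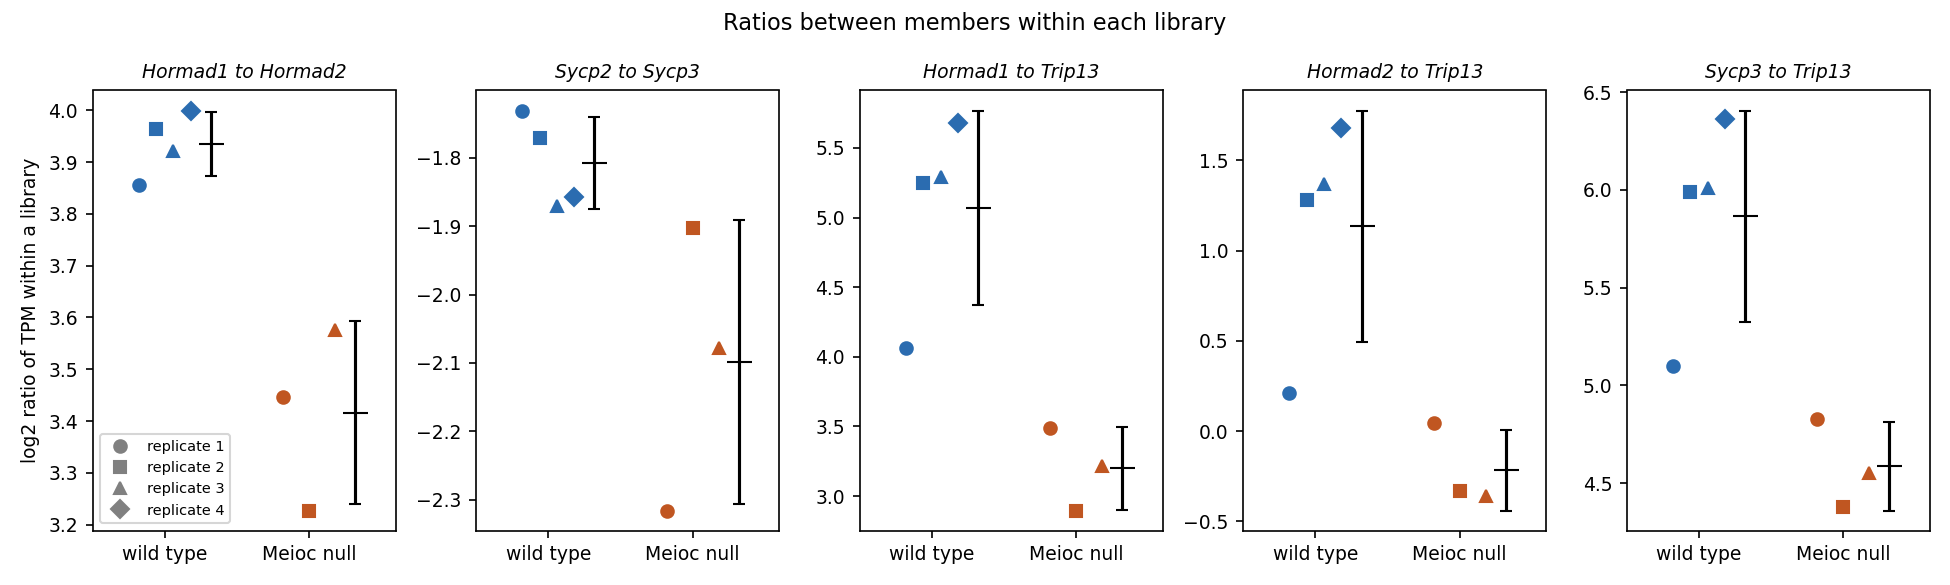
Log2 ratio of TPM (vertical axis, not from 0, a different scale in each panel) for 5 pairs of genes within each wild-type (blue) or *Meioc*-null (orange) library, with symbols for the replicate number and black bars for the mean and SD. In all 5 panels the wild-type points lie above the null points, and in the 3 panels with *Trip13* wild-type replicate 1 lies nearest to the null.

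Each gene was also set against the germ cell markers *Ddx4*, *Dazl* and *Rbm46* (geometric mean TPM), since the germ cell marker sum was higher in wild type. Of these markers, *Dazl* was itself called higher (log2 fold change 0.58, adjusted p = 0.0112 by the edgeR QL test), and *Ddx4* (0.24, adjusted p = 0.081) and *Rbm46* (0.02) were not called. Relative to the markers, the log2 difference between wild type and null was 1.40 for *Hormad1*, 1.10 for *Sycp2* and 0.81 for *Sycp3*, each with no overlap between groups (exact permutation p = 0.0571, 0.0714 after adjustment over 5 genes). For *Hormad2* the difference was 0.88 and the groups overlapped, since wild-type replicate 1 (0.108 of the marker level) was below null replicate 1 (0.110; exact permutation p = 0.114). *Trip13* lay the other way, lower in wild type by a log2 difference of -0.47 with no overlap: 0.0734 to 0.0934 of the marker level in wild type and 0.107 to 0.122 in the null (exact permutation p = 0.0571, 0.0714 adjusted). The 4 axis genes thus stayed higher on average per germ cell marker transcript. On log2(TPM + 0.1) without the markers, differences were nearly the same: 1.41 (*Hormad1*), 0.89 (*Hormad2*), 1.11 (*Sycp2*), 0.82 (*Sycp3*) and -0.46 (*Trip13*). The values relative to the markers thus differ from those on the CPM scale by the unit, TPM, and hardly by the markers.

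Within wild type, the same libraries stood at the ends of the range for all 5 genes. *Hormad1*, *Hormad2*, *Sycp2* and *Sycp3* were lowest in replicate 1 and highest in replicate 4, and *Trip13* was highest in replicate 1 and lowest in replicate 4. These ends were not particular to the 5 genes. *Rad21l*, *Smc1b*, *Tex12* and *Stra8* were also lowest in replicate 1 and highest in replicate 4. *Sycp1*, *Stag3* and *Mei1* did not have both of these ends, and *Cdc20*, *Bub3* and *Rbm46* ran like *Trip13*. Coefficients of variation among wild-type libraries were 29.5% for *Hormad1*, 26.8% for *Hormad2*, 21.6% for *Sycp3*, 18.7% for *Sycp2* and 14.1% for *Trip13*. Among null libraries they were lower for every gene, from 8.72% (*Sycp2*) to 19.9% (*Hormad1*).

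Profiles across the 7 libraries were compared as log2 CPM centred on each gene's mean, by root-mean-square difference, where 0 is an identical profile. Among the members, *Hormad2* and *Sycp3* were closest (0.13) and *Hormad1* and *Sycp3* the farthest apart of the 4 axis genes (0.32). *Trip13* lay 0.73 to 1.05 from each of the others. Over 10240 genes averaging 10 CPM or more, the 3 nearest to *Hormad1* were *Smc1b*, a meiotic cohesin subunit (0.0972), *Tex12*, a component of the synaptonemal central element (0.105), and *Ugt8a*, a galactosyltransferase of sphingolipid synthesis (0.141). The nearest to *Hormad2* were *Iqcb1*, which encodes a ciliary protein (0.0523), *Ube2t*, a ubiquitin-conjugating enzyme of the Fanconi anemia pathway (0.0875), and *Asf1b*, a histone chaperone (0.0899). Those nearest to *Sycp2* were *Tsga10*, a testis gene (0.0961), *Zcwpw1*, a reader of histone methylation at recombination sites (0.109), and *Stag3*, a meiotic cohesin subunit (0.132). Next to *Sycp3* lay the central element genes *Syce1* (0.0774) and *Syce2* (0.0788) and the recombination gene *Rad51ap1* (0.0833). Wild type was called higher for all 12 of them. The 3 nearest to *Trip13*, the ubiquitin ligase gene *March7* (0.0434), *Casc4* (0.0452) and the ribosome biogenesis gene *Nop14* (0.0477), were not called. The profiles span both groups, so a gene near a member has a similar fold change by selection. The calls of these near genes follow from how they were picked and are no separate result. The libraries also share depth and composition across genes, so these distances are descriptions.

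Genes that work with the axis were counted from lists that contain no member. Of 5 axis cohesin genes, wild type was called higher for 4 and lower for 0, with a median log2 fold change of 1.38. The largest was *Rad21l*, a kleisin of meiotic cohesin, with 57.4 ± 22.2 CPM (SD, n = 4) in wild type against 11.9 ± 0.597 CPM (SD, n = 3) in null testes (log2 fold change 2.27). *Smc1b* followed at 1.74 and *Stag3* at 1.38. *Smc3*, shared with mitotic cohesin, was at 0.41 (adjusted p = 0.0487 by the edgeR QL test), and its call was lost in 15 of 17 alternatives (adjusted p from 0.0098 to 0.51 over the alternatives), with a log2 fold change of -0.08 when libraries were scaled to the germ cell markers. *Rec8*, the other meiotic kleisin, was not called, with a log2 fold change of 0.23 (adjusted p = 0.48). Among 4 mitotic cohesin genes, 0 were higher and 1 was lower, *Rad21* at -0.36 (adjusted p = 0.0207). *Smc1a* was at 0.05, *Stag1* at 0.16 and *Stag2* at 0.0044, none of them called, and the median of the 4 was 0.03.

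The synaptonemal central region, which joins the lateral elements of paired homologs, had 6 of 6 genes called higher, with a median of 0.93. *Tex12* (log2 fold change 1.69) and *Syce2* (1.18) were the highest, and *Sycp1* (0.86) and *Syce3* (0.83) the lowest. *Sycp1*, the transverse filament gene, averaged 642 ± 23.3 CPM (SD, n = 4) in wild type against 353 ± 53.3 CPM (SD, n = 3) in null testes, which puts its log2 fold change below that of each of the 4 called axis genes. The machinery that forms double-strand breaks on the axis had 5 of 7 genes called higher, with a median of 0.82. This count fell to 2 without null replicate 2 or 3 and to 3 without wild-type replicate 2 or 3. *Mei1* (1.92) and *Iho1* (1.50), whose product binds HORMAD1, were the highest. *Rec114* was at 0.33 (adjusted p = 0.16) and *Spo11*, the catalytic subunit, at 0.49 (adjusted p = 0.31, edgeR), neither of them called. *Spo11* was low in these testes, averaging 2.80 ± 1.14 CPM (SD, n = 4) in wild type against 1.97 ± 0.315 CPM (SD, n = 3) in the null. Wild-type replicate 1 was at 4.51 CPM. The other wild-type libraries, at 2.22 to 2.24 CPM, lay within the null range of 1.66 to 2.28 CPM.

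The last list held other HORMA-domain genes and the spindle checkpoint genes that TRIP13 and MAD2 serve in mitosis. Of its 11 genes, 2 were called higher and 0 lower, and the median log2 fold change was 0.06. *Bub1*, a checkpoint kinase, averaged 238 ± 89.7 CPM (SD, n = 4) in wild type against 99.3 ± 8.89 CPM (SD, n = 3) in the null (log2 fold change 1.26, adjusted p = 0.0243), and *Mad1l1*, which recruits MAD2, was at 0.49 (adjusted p = 0.0251, both by the edgeR QL test). Neither call held when wild-type replicate 2, 3 or 4 or null replicate 2 or 3 was left out, where 0 of the 11 were called. The HORMA-domain genes themselves had log2 fold changes of 0.06 (*Mad2l1*, the gene of MAD2), 0.15 (*Mad2l2*), 0.06 (*Mad2l1bp*, the adaptor that brings MAD2 to TRIP13), 0.0038 (*Atg13*) and -0.04 (*Atg101*), none of them called. The lowest of the list were *Cdc20* (-0.22) and *Bub3* (-0.19), also not called, beside *Trip13* at -0.20. Over all 5 lists, mitotic cohesin included, 17 of 33 genes were called higher and 1, *Rad21*, lower, against 7.77% and 3.33% of all tested genes. The 17 higher calls became 9 without null replicate 2 or 3, 11 without wild-type replicate 2 or 3, 11 with germ cell scaling and 7 with the replicate block or at an adjusted p under 0.01.

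**Figure D4:**
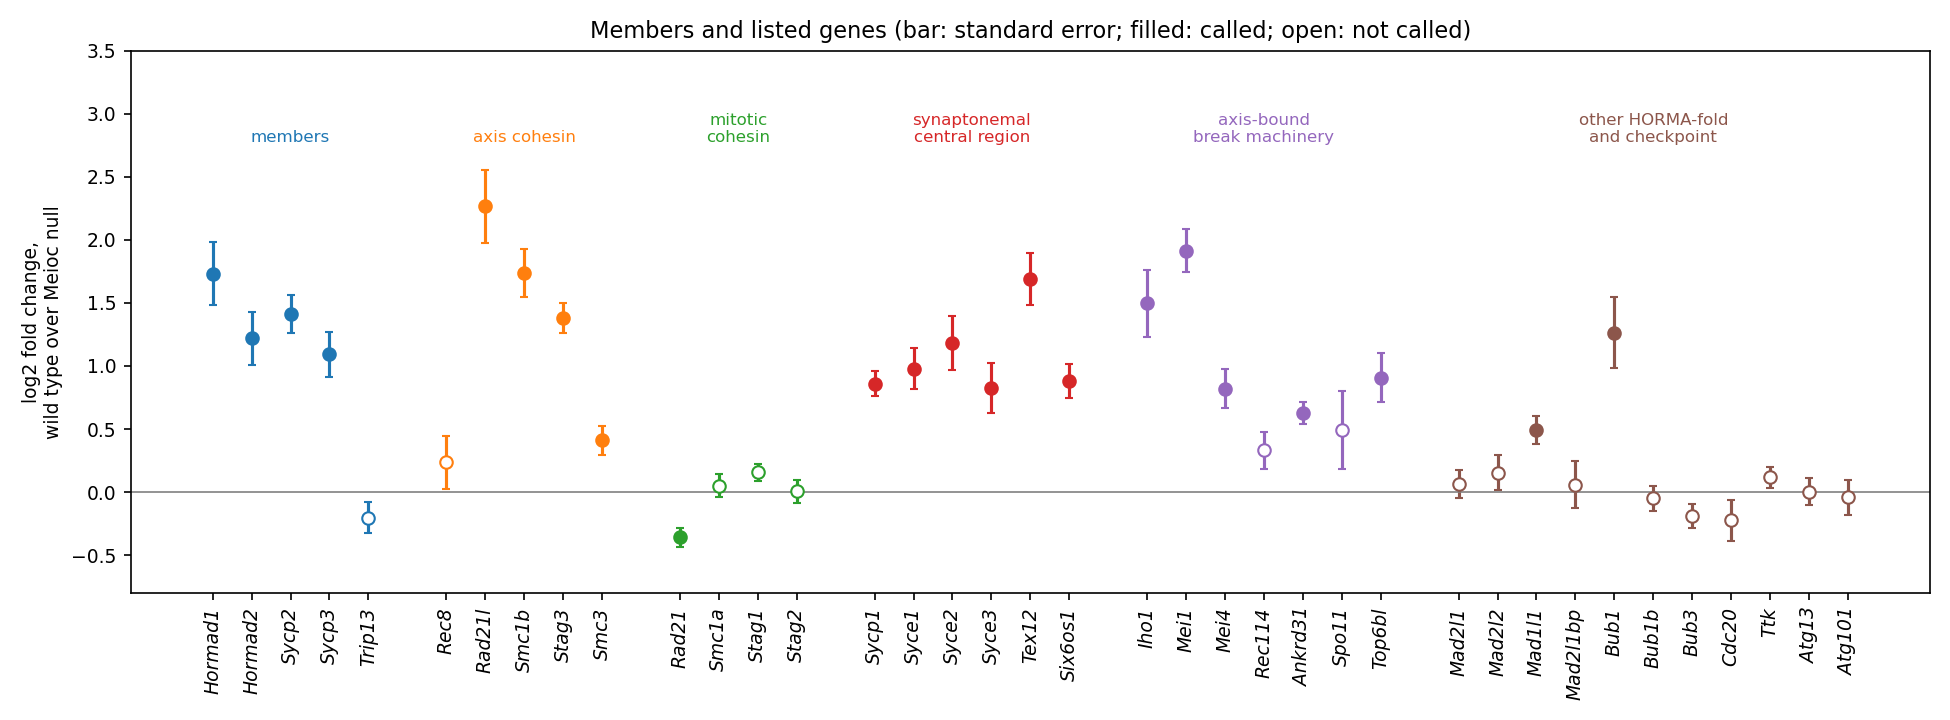
Log2 fold change of wild type over *Meioc* null (vertical axis) with its standard error for the 5 genes and the 5 lists of related genes, filled where called at an adjusted p under 0.05. *Hormad1*, *Hormad2*, *Sycp2*, *Sycp3* and all 6 central region genes are filled above 0, while *Trip13* and 9 of the 11 other HORMA-domain and checkpoint genes are open.

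Transcript forms were described as shares of each gene's TPM, with no test, because kallisto divides shared reads by estimation. *Hormad1-201*, of 15 exons and 392 codons, held 76.1% ± 4.37 (SD, n = 4) of *Hormad1* TPM in wild type and 78.0% ± 1.18 (SD, n = 3) in the null. *Hormad1-202*, of 374 codons, held 23.3% and 21.1%, *Hormad1-204* at most 1.42% in any library, and *Hormad1-203* was listed at 0 in all 7. The *Hormad2* forms encode the same number of codons, 306, and differ at their starts: *Hormad2-202* begins at position 4440745 of chromosome 11 and *Hormad2-203* at 4441082, which is the start whose upstream sequence is printed above. *Hormad2-202* held 58.8% to 71.4% in wild type and 67.0%, 65.7% and 44.3% in null replicates 1 to 3. *Sycp3-201*, of 254 codons, held 76.2% to 83.9% in wild type and 76.6%, 78.2% and 97.0% in null replicates 1 to 3. The rest belonged to *Sycp3-203* of 248 codons. *Sycp2* (1500 codons, 44 exons) and *Trip13* (432 codons, 13 exons) each had 1 listed transcript. The groups overlapped for the shares of every form with reads, so the higher abundance of the axis genes in wild type was not accompanied by a separation of forms.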

How the data were processed

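Total RNA, depleted of ribosomal RNA, was sequenced with 50 bp single-end stranded reads. The authors trimmed reads with cutadapt 1.8 and quantified GENCODE Basic vM15 transcripts (mm10) with kallisto 0.44.0. The deposited tables give, for each protein-coding transcript, the estimated count, not normalized, and a TPM that the authors rescaled over the protein-coding set. Libraries were grouped by the genotype in their labels.

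Here, 43020 of 43139 transcripts had an Ensembl identifier in GENCODE vM21 (GRCm38), and values were summed by gene. The 119 unmatched transcripts, with 0.247% to 0.282% of the counts of a library, were left out. Estimated counts were rounded and tested with edgeR 4.0.16 (R 4.3.3; quasi-likelihood test, TMM normalization, genotype alone, TPM of at least 1 in at least 3 libraries), with Benjamini-Hochberg adjustment; genes under an adjusted p of 0.05 were called. Fold changes are wild type over null. The study used DESeq2, run here as an alternative (1.42.0), beside limma 3.58.1 on log2(TPM + 1) and log2(TPM + 0.1). Only the edgeR test was run on simulated counts, with the same dispersion for all genes. Ratios were tested exactly with scipy 1.17.1. CPM are TMM-scaled. RNA spike-ins, a different mix for each genotype, were added by the authors and used neither in their analysis nor here.

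Named genes were the members, *Meioc*, the cell type markers, the highest and lowest 2 log2 fold changes of each list (all for lists of up to 5) and the 3 nearest profiles of each member; the HORMA-domain genes were added for their role after their values were seen. The members and lists were chosen with earlier results of these data known. *Gcna*, a listed germ cell marker, was not matched.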

Additional observations from a re-analysis of the deposited data

How the results depend on the processing

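The direction of each of the 5 genes held under all alternatives run. Of 261 recomputed values, 219 were counted as kept and 42 were not (34 moved, 7 lost their call and 1 gained one). Kept meant the same sign and call for a fold change and the same sign for a ratio. For a count it meant within a set fold of the reported count, and for a transcript share within its SD. Thus 2172 genes called without wild-type replicate 1, against 1513, and 3 axis cohesin calls, against 4, were counted as kept. The number of genes called, 1513 as reported, was 2331 with DESeq2, 9533 with libraries scaled to germ cell markers, 2522 and 2506 with limma on log2(TPM + 1) and log2(TPM + 0.1), 97 at an adjusted p under 0.01 and 109 with the replicate block. The share of calls higher in wild type, 70.0% as reported, was 47.3% with library size only, 2.96% with germ cell scaling and 17.4% on log2(TPM + 1), where the median log2 fold change of all genes was -0.49 (germ cell scaling) and -0.23 (TPM). *Trip13* was called only with germ cell scaling (-0.68, adjusted p = 0.0033; 0.063 to 0.63 under the other alternatives that keep all libraries). At an adjusted p under 0.01, *Hormad2* (1.22) and *Sycp3* (1.09) were no longer called. Break machinery calls numbered 2 with germ cell scaling, 3 and 3 with limma, 2 at the stricter threshold and 1 with the block; calls in the other HORMA and checkpoint list numbered 1, 1, 1, 0 and 0; central region calls fell to 2 at the stricter threshold and 3 with the block. On counts in place of TPM, the mean share of *Hormad1-201* in the null was 75.2% and that of *Hormad2-202* in wild type 75.5%.

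The replicate numbers are shared between groups but did not pair the libraries: correlations of same-numbered deviations were -0.044, -0.097 and -0.21, and no library correlated best with its own number. With the replicate block, where wild-type replicate 4 adds nothing to the estimate, *Hormad2* (1.05, adjusted p = 0.0693) and *Sycp3* (0.98, adjusted p = 0.0553) were not called, and *Hormad1* (1.56, adjusted p = 0.028) and *Sycp2* (1.31, adjusted p = 0.0061) were. Leaving out 1 library at a time, the genes called ranged from 131 (without null replicate 3) to 2172, with 296, 275 and 478 without wild-type replicates 2, 3 and 4 and 353 without null replicate 2. Log2 fold changes ranged from 1.58 to 1.92 (*Hormad1*), 1.07 to 1.39 (*Hormad2*), 1.31 to 1.53 (*Sycp2*), 0.97 to 1.23 (*Sycp3*) and -0.30 to -0.11 (*Trip13*). All 10 ratio differences kept their sign in each of the 7 leave-one-out sets. Calls ranged from 3 to 4 in axis cohesin (3 also in 9 of the other 10 alternatives), 4 to 6 in the central region, 2 to 5 in break machinery (3 without wild-type replicate 2 or 3, 2 without null replicate 2 or 3) and 0 to 2 in the HORMA and checkpoint list. The cause of these changes was not tested.

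With 4 libraries against 3, the ratio tests could not pass 0.05. No member level, ratio or transcript share stood apart within wild type by Dixon's test, over 18 groups tested. With 4 libraries this test has little power, so it does not show that wild-type replicate 1 is like the others.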
